A study of Mus musculus with 162 samples.

Results

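The 3 vesicular glutamate transporter genes, Slc17a6, Slc17a7 and Slc17a8, were followed across single neural cells of the mouse embryo. They were taken by symbol and Ensembl identifier as 3 of the 22880 genes of the count table, and all 3 held counts. Each sample was the cytosol of 1 cell, drawn into a patch-clamp pipette at E17.5 to E18.5 and sequenced. The 3 Cre driver lines carried the names of Nex (Neurod6, a transcription factor gene of cortical glutamatergic neurons), Lhx6 (a transcription factor gene of interneurons from the medial ganglionic eminence) and Htr3a (a serotonin receptor gene of other interneurons). Further alleles, the reporter, and how cells were picked for the pipette are not given in the sources used here. Of 162 cells, 148 passed the submitters' quality control: 17 of the Nex line, 17 of the Lhx6 line and 114 of the Htr3a line. Each passed cell carries 1 of 9 type labels from the submitters: 12 Cajal Retzius (all Htr3a line), 11 VZ-derived (2 Nex, 1 Lhx6, 8 Htr3a), 33 Glutamatergic 1 (10 Nex, 23 Htr3a), 13 Glutamatergic 2 (1 Nex, 12 Htr3a), 11 CGE-derived (all Htr3a), 18 MGE-derived 1 (7 Lhx6, 11 Htr3a), 24 MGE-derived 2 (7 Lhx6, 17 Htr3a), 4 GABAergic (1 Lhx6, 3 Htr3a) and 22 Undefined (4 Nex, 1 Lhx6, 17 Htr3a). The labels do not spell out VZ, CGE and MGE, which usually stand for the ventricular zone and the caudal and medial ganglionic eminences.

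Vesicular glutamate transporters sit in the membrane of synaptic vesicles and load glutamate from the cytosol, driven by the proton gradient of the vacuolar ATPase. A neuron that releases glutamate needs at least 1 of them, so they are the usual markers of glutamatergic neurons. Slc17a7 encodes VGLUT1, the main transporter of adult cortical pyramidal neurons. Slc17a6 encodes VGLUT2, known from thalamic, brainstem and many immature glutamatergic neurons and from Cajal-Retzius cells, which are born early and lie at the surface of the cortex. Slc17a8 encodes VGLUT3, known from scattered neurons that often use a second transmitter, some cortical interneurons among them.

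On build GRCm38 (GENCODE M21), Slc17a6 (ENSMUSG00000030500) occupies the plus strand of chromosome 7 from 51622006 to 51671119, and Slc17a7 (ENSMUSG00000070570) the same strand from 45163949 to 45176142. Slc17a8 (ENSMUSG00000019935) lies on chromosome 10 from 89574020 to 89621253 on the minus strand. The reading frames hold 582, 560 and 601 codons. Of aligned codons, 79.8% gave the same residue in Slc17a6 and Slc17a7, 72.8% in Slc17a6 and Slc17a8, and 75.1% in Slc17a7 and Slc17a8. Below is the stretch of 90 coding bases in which the 3 genes are most alike, shown because reads could be exchanged between the genes most easily there. It lies in exon 2 of 12 in each gene, at chr7:51625405-51625494 (Slc17a6, codons 71 to 100), chr7:45168839-45168928 (Slc17a7, codons 63 to 92) and chr10:89606616-89606705 (Slc17a8, codons 89 to 118). Capitals mark the bases that differ from Slc17a6.
Slc17a6: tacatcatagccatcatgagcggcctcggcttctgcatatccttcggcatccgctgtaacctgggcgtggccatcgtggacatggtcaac
Slc17a7: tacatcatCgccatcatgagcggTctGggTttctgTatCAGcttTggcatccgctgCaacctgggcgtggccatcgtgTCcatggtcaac
Slc17a8: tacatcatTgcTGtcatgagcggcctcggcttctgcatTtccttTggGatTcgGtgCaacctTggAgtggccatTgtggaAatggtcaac
Even in this stretch Slc17a7 differed from Slc17a6 at 12 bases (1 residue) and Slc17a8 at 13 bases (2 residues), and 69 of the 90 bases were the same in all 3. Over the whole annotated transcripts, untranslated parts included, the longest run of bases shared without a difference was 21 for Slc17a6 and Slc17a7. It was 25 for Slc17a6 and Slc17a8 and 20 for Slc17a7 and Slc17a8. Read length and the handling of reads with several matches are not given in the sources used here. The annotation also places the microRNA gene Mir7055 within Slc17a7 and Gm45072 within Slc17a6, and strandedness of the counting is not given either.

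The depth of passed cells lay between 1710224 and 24836041 counts, with 2066 to 14811 genes detected. Because the labels tie no cell to an animal, litter or culture, every group stands for 1 sample, no difference was tested and SDs describe the spread between cells. Driver line and animal cannot be told apart. Levels are CPM, a gene's counts scaled to a total of 1000000 per cell or group, and differences are those between group means of log2(CPM + 1), each cell weighted alike. Intervals are 95% intervals (exact Poisson for CPM, Clopper-Pearson for shares) and cover counting error at most, as reads that carry no molecular identifier do not stand for separate molecules. How the submitters set the type labels is not given, so the transporters may have taken part in them. Against marker lists, 12 of 12 Cajal Retzius cells held at least 3 of 8 Cajal-Retzius markers at 10 or more counts, 41 of 46 Glutamatergic 1 and 2 cells at least 3 of 8 cortical glutamatergic markers, and 53 of 57 cells of the CGE-derived, MGE-derived 1, MGE-derived 2 and GABAergic labels (GABAergic types below) at least 3 of 8 GABAergic markers. Ventricular zone progenitor markers were low in most VZ-derived cells, but they cannot check a label that names where cells derive from. These reached 3 of 8 in 2 of 11 cells and had a median sum of 0 CPM, while 11 of 11 cells held cortical glutamatergic markers (median sum 1373 CPM). The label is used below as a name only. Microglia markers (3 or more of 8 at 10 or more counts) were found in 25 of the 148 cells.

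Slc17a6 was high in Cajal Retzius cells and patchy elsewhere. All 12 Cajal Retzius cells held it, from 59.0 CPM in cell 6 through a median of 366 to 1529.9 CPM in cell 8. The summed level was 534 CPM (530.5 to 538), and 411 CPM without cell 8, which gave 31.5% of the counts. No cell of this label lacked the gene, though the cells with least and most of it lay far apart.

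VZ-derived cells held Slc17a6 in 4 of 11 cells, at 26.1, 57.5, 84.0 and 385 CPM, and 70.4 CPM in sum. Glutamatergic 1 cells held it in 9 of 33 (0.640 to 555 CPM, 46.5 CPM in sum) and Glutamatergic 2 cells in 3 of 13 (69.9, 70.4 and 71.8 CPM, 19.5 CPM in sum). In each of these labels most cells had no count at all, so the sums rest on a minority of cells. Without the VZ-derived cell at 385 CPM the sum for that label was 20.8 CPM, and without the Glutamatergic 1 cell at 555 CPM that sum was 26.4 CPM.

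Undefined cells held Slc17a6 in 9 of 22 (3.86 to 338 CPM), with 33.6 CPM in sum and 13.5 CPM without the highest cell. Among GABAergic types, 1 of 11 CGE-derived cells (27.2 CPM) and 3 of 24 MGE-derived 2 cells (0.0899, 0.143 and 76.3 CPM) had counts. None of 18 MGE-derived 1 cells and none of 4 GABAergic cells did, which allows shares of up to 16.7% and 75% when a count of 0 is set at 3 cells of the total, or 18.53% and 60.2% by the Clopper-Pearson interval. Ordered by mean log2(CPM + 1), Cajal Retzius cells stood first at 8.51 ± 1.28 (SD, n = 12 cells) and VZ-derived cells next at 2.33 ± 3.35 (n = 11 cells). That gap of 6.18 was larger than either SD. Below it came Undefined (2.10 ± 2.83), Glutamatergic 1 (1.62 ± 3.05), Glutamatergic 2 (1.42 ± 2.70), CGE-derived (0.44 ± 1.45) and MGE-derived 2 (0.27 ± 1.28), and no neighbours there differed beyond their SD.

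Slc17a7 was high in the glutamatergic labels. All 13 Glutamatergic 2 cells held it, from 36.1 CPM through a median of 200.5 to 468 CPM, with 221 CPM in sum (219 to 224). Glutamatergic 1 cells held it in 25 of 33, from 0 through a median of 36.0 to 729.6 CPM, with 119.6 CPM in sum. Neither sum rested on 1 cell: without the cell of highest CPM, Glutamatergic 2 stood at 217 CPM and Glutamatergic 1 at 96.6 CPM.

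No Cajal Retzius cell had a count of Slc17a7, nor did any CGE-derived or GABAergic cell. By the same limits, 0 of 12 Cajal Retzius cells allows a share of up to 25%, or 26.5% by the Clopper-Pearson interval. Counts in MGE-derived 1 cells amounted to 3 reads over 2 of 18 cells. MGE-derived 2 cells held it in 4 of 24, and 188 of their 234 counts came from cell 13 of the Htr3a line (21.9 CPM). VZ-derived cells held it in 5 of 11 at no more than 39.2 CPM (6.66 CPM in sum), and Undefined cells in 10 of 22 at up to 172 CPM (30.1 CPM in sum). In the order by mean log2(CPM + 1), Glutamatergic 2 (7.42 ± 1.25) stood above Glutamatergic 1 (4.51 ± 3.21), Undefined (1.99 ± 2.71), VZ-derived (1.47 ± 2.19), MGE-derived 2 (0.35 ± 1.06) and MGE-derived 1 (0.03 ± 0.09). No gap between neighbours in this order was larger than the larger SD.

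Set against each other per kilobase of exon, Slc17a6 in Cajal Retzius cells was the highest of any gene and label, at 98.9 CPM per kilobase. Slc17a7 reached 41.0 CPM per kilobase in Glutamatergic 2 and 22.2 in Glutamatergic 1 cells. Slc17a8 reached no more than 4.86 CPM per kilobase, in the 4 GABAergic cells, where 1 cell gave all the counts.

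**Figure D1:**
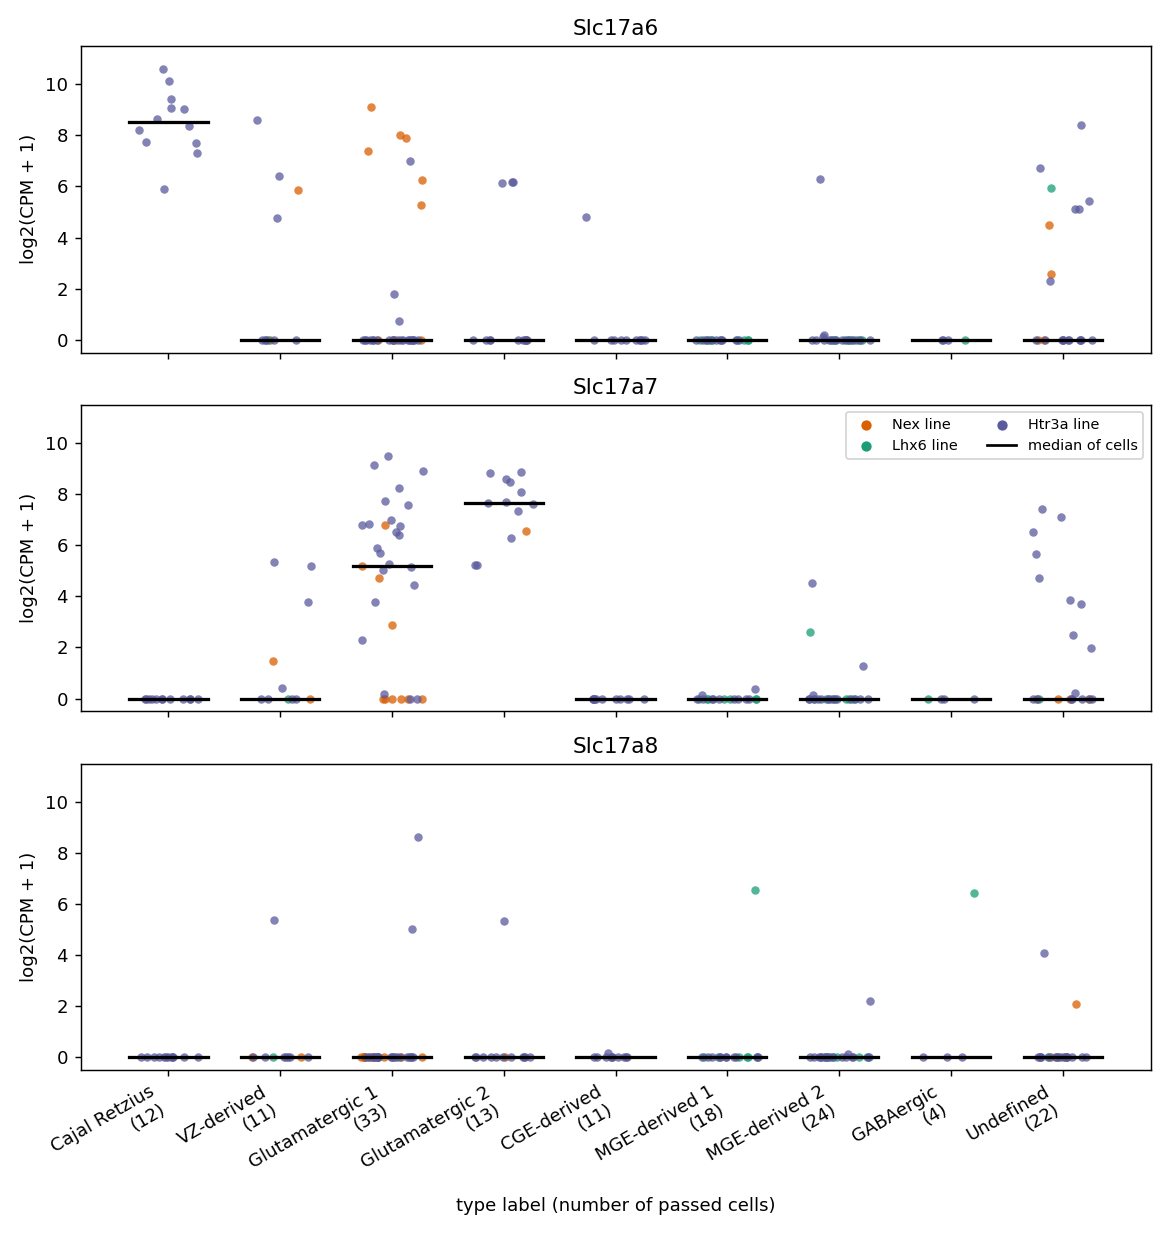
Level of Slc17a6, Slc17a7 and Slc17a8 in each passed cell as log2(CPM + 1), by type label, with points coloured by driver line and the median of the cells as a black bar. Slc17a6 fills the Cajal Retzius column (12 of 12 cells) and Slc17a7 the Glutamatergic 2 column (13 of 13 cells), while Slc17a8 appears in 11 scattered cells.

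Cajal Retzius cells held Slc17a6 and no Slc17a7, while most of the 46 Glutamatergic 1 and 2 cells held Slc17a7. The Nex line Glutamatergic 1 cells among them held Slc17a6 in 6 of 10 and Slc17a7 in 4 of 10. Slc17a6 was present in 12 of 12 Cajal Retzius cells and in 12 of 46 glutamatergic cells, at 534 against 37.1 CPM in sum, a difference of 6.94. Slc17a7 was present in 0 of 12 Cajal Retzius cells and in 38 of 46 glutamatergic cells (155 CPM in sum), a difference of -5.33. With their 0 counts set at 3 counts over the group, the summed level of Slc17a7 was 8069-fold lower in Cajal Retzius cells. That figure follows from depth and is no bound, as 0 of 12 cells allows a share of up to 26.5% with the gene. For Slc17a6 the groups overlapped: the lowest Cajal Retzius cell (59.0 CPM) stood below the highest glutamatergic cell (555 CPM). Of all genes counted in 10% or more of the cells on either side, 42.0% lay past a log2 difference of 1 in this comparison, and their median difference was 0.51. Cajal Retzius cells were also richer in detected genes, with a median of 6715 against 5621.5.

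In the 46 Glutamatergic 1 and 2 cells against the 57 cells of GABAergic types, Slc17a7 was present in 38 of 46 against 6 of 57 cells and stood at 155 against 0.433 CPM, a difference of 5.17. Slc17a6 was present in 12 of 46 against 4 of 57 cells, at 37.1 against 2.21 CPM, a difference of 1.36. Total counts were alike, with medians of 9424926 in glutamatergic cells and 9325197 in GABAergic types, while glutamatergic cells had more genes detected, 5621.5 against 4895 in the median. Among cells of at least 4000 genes the Slc17a7 difference was 5.84 and that of Slc17a6 1.57. Past a difference of 1, as both members were, lay 15.8% of the genes in this comparison, and their median was 0.02. The 7.02% (1.95% to 17.004%) and 10.5% (3.96% to 21.5%) of GABAergic-type cells with a count of Slc17a6 and Slc17a7 are shares in cells labelled GABAergic and include cells with 941 and 267 counts of Slc17a6, described below. Within the Htr3a line the Slc17a6 difference was 0.53, below 1, and that of Slc17a7 was 6.10.

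Glutamatergic 1 cells had less Slc17a7 than Glutamatergic 2 cells, with a median of 36.0 CPM against 200.5 CPM and a difference of -2.92. Slc17a6 differed by 0.20 between them, and within the Htr3a line by -1.13, with a count in 3 of 23 Glutamatergic 1 cells and 3 of 12 Glutamatergic 2 cells. Most genes were lower in Glutamatergic 1 cells: 49.9% of all genes lay past a difference of 1, the median was -0.97, and the cells held a median of 4955 genes against 7586. What part the number of detected genes has in the Slc17a7 difference was not tested. Among cells of at least 4000 genes the difference was -2.21, and within the Htr3a line -1.88.

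VZ-derived cells differed from Glutamatergic 1 and 2 cells by 0.77 in Slc17a6 and by -3.86 in Slc17a7, with 26.3% of all genes past 1 in either direction and a median of -0.09. The Slc17a6 difference was 0.14 without the VZ-derived cell at 385 CPM, and within the Htr3a line it was 1.67, past 1. CGE-derived cells differed from MGE-derived 1 and 2 cells by 0.28, -0.21 and -0.20 in Slc17a6, Slc17a7 and Slc17a8, none past 1, where 28.2% of all genes were, and Slc17a7 alone passed the filter of 10% of cells. The Slc17a6 value rests on 1 CGE-derived cell, without which it was -0.16.

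Within 1 label, Glutamatergic 1, the transporters parted by driver line. Slc17a6 was present in 6 of 10 Nex line cells and in 3 of 23 Htr3a line cells. Slc17a7 was present in 4 of 10 Nex line cells and in 21 of 23 Htr3a line cells. Nex line cells ran from 0 through a median of 56.4 to 555 CPM of Slc17a6, against 0, 0 and 127 CPM in Htr3a line cells. For Slc17a7, Nex line cells ran from 0 through a median of 0 to 110.4 CPM, against 0, 83.4 and 729.6 CPM in Htr3a line cells. The ranges overlapped for both genes, but each line had more cells with the transporter that the other mostly lacked.

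In sums, Slc17a6 stood at 157 CPM (155 to 160.1) in the Nex line and 6.98 CPM (6.64 to 7.34) in the Htr3a line, and the difference of mean log2(CPM + 1) was 3.99 (4.40 ± 3.92 against 0.41 ± 1.49). Slc17a7 stood at 18.0 CPM (17.03 to 18.9) in the Nex line and 156 CPM (154 to 158) in the Htr3a line, and the difference was -3.65 (1.96 ± 2.70 against 5.61 ± 2.78). Each difference was larger than the larger SD between cells, for Slc17a6 by little. In this comparison 33.3% of all genes lay past 1 and the median was -0.10. Without the cell at 555 CPM the Slc17a6 sum in the Nex line was 89.97 CPM, and in the Htr3a line 1 cell (127 CPM) gave 98.4% of the counts and left 0.117 CPM.

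Nex line cells were shallower, with a median of 4312.5 genes against 5184. Among cells of at least 4000 genes, Slc17a6 was in 5 of 6 Nex line cells and 3 of 16 Htr3a line cells, and Slc17a7 in 3 of 6 and 16 of 16, with differences of 5.40 and -3.34. Genes of erythrocytes also differed: Nex line cells summed to 0 to 22.3 CPM (median 0, 3 of 5 genes with a count, Hba-a2 and Hbb-bt at 0) against 0 to 2029 CPM (median 38.6, 5 of 5 genes). At least 3 microglia markers at 10 or more counts were found in 0 of 10 Nex line cells (summed level 0 to 1028.5 CPM, highest in the cell with most Slc17a6) and in 3 of 23 Htr3a line cells (0 to 5012 CPM). Without those 3 cells the differences were 4.27 and -3.63. The part of erythrocyte RNA in the transporter values was not tested. GABAergic markers had medians near 0 in both lines (sums of 0 and 0.122 CPM), but the highest sums were 11.8 CPM in the Nex line and 1279 CPM in the Htr3a line. Gad1 or Gad2 had a count in 1 of 10 and 7 of 23 cells. Cortical glutamatergic markers had median sums of 1317 and 1017 CPM. Their sums ran from 503 to 9416 CPM in the Nex line and from 136 to 2067 CPM in the Htr3a line.

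**Figure D2:**
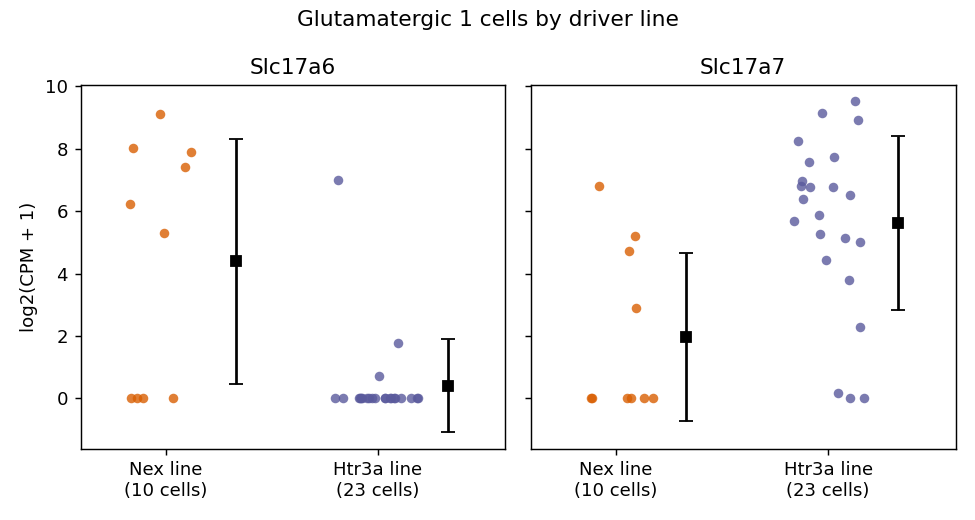
Slc17a6 and Slc17a7 in Glutamatergic 1 cells as log2(CPM + 1), Nex line left and Htr3a line right, 1 point per cell, with the mean and SD over cells as a black square and bar. Slc17a6 is above 0 in 6 of 10 Nex line and 3 of 23 Htr3a line cells, and Slc17a7 in 4 of 10 and 21 of 23.

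Most glutamatergic cells held 1 of the pair and not both. Of 46 Glutamatergic 1 and 2 cells, 8 held both Slc17a6 and Slc17a7, 4 held Slc17a6 without Slc17a7, 30 held Slc17a7 without Slc17a6 and 4 held neither. At least 1 of the pair was thus counted in 91.3% (79.2% to 97.6%) of glutamatergic cells, against 15.8% (7.48% to 27.9%) of the 57 cells of GABAergic types. Cajal Retzius cells were all of 1 kind, with 12 of 12 holding Slc17a6 without Slc17a7. VZ-derived cells were mixed, with 1 holding both, 3 Slc17a6, 4 Slc17a7 and 3 neither.

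Per line, the Nex Glutamatergic 1 cells comprised 2 with both, 4 with Slc17a6 alone, 2 with Slc17a7 alone and 2 with neither, against 3, 0, 18 and 2 of the Htr3a Glutamatergic 1 cells. No Htr3a line cell of either Glutamatergic label held Slc17a6 alone.

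**Figure D3:**
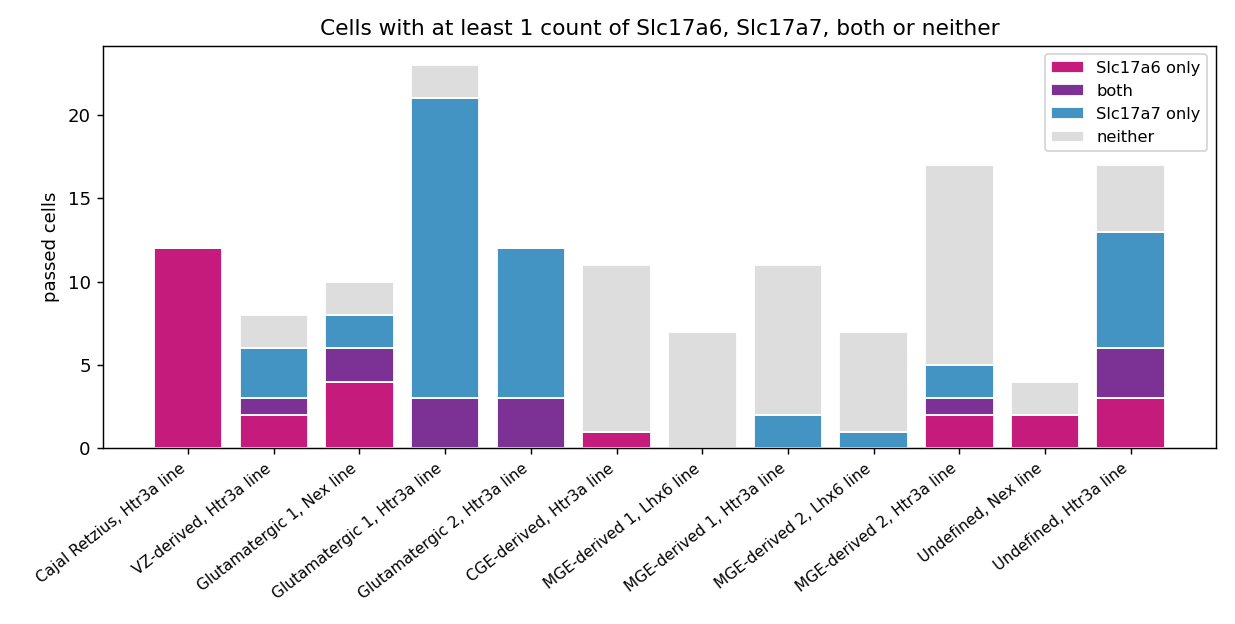
Number of passed cells with at least 1 count of Slc17a6 only, of both, of Slc17a7 only or of neither, for each type label and line with 4 or more cells (groups of fewer cells are left out, the GABAergic label with them). Cajal Retzius is Slc17a6 only in 12 of 12 cells, Htr3a line Glutamatergic 1 is Slc17a7 only in 18 of 23, and Nex line Glutamatergic 1 holds all 4 classes.

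Levels of the 2 genes in cells with both ranged from alike to far apart. Per kilobase of exon and on the log2(CPM per kilobase + 1) scale, Slc17a6 minus Slc17a7 in the 8 glutamatergic cells with both ran from -6.57 to 3.76, and Slc17a6 was higher in 4 of 8. Of these 8, Glutamatergic 2 cell 11 of the Htr3a line was nearest to balance, with 70.4 CPM of Slc17a6 and 77.6 CPM of Slc17a7. Glutamatergic 1 cell 6 of the Nex line leaned to Slc17a6 (555 against 36.0 CPM), and Glutamatergic 1 cell 2 of the Htr3a line to Slc17a7 (0.640 CPM of Slc17a6 against 569 CPM of Slc17a7). Under other labels, the difference ran from 0.22 to 1.17 in the 3 Undefined cells with both. It was 6.09 in the 1 VZ-derived cell with both, and -3.07e-05 in the 1 MGE-derived 2 cell, at 0.0899 CPM of each gene. Over cells with either gene, the difference averaged 6.10 ± 1.25 (SD) in 12 Cajal Retzius cells, -2.04 ± 3.80 in 29 Glutamatergic 1 cells and -4.16 ± 2.32 in 13 Glutamatergic 2 cells. The Glutamatergic 1 mean joins opposite signs, 2.34 ± 3.45 in 8 Nex line cells and -3.70 ± 2.34 in 21 Htr3a line cells. Across the 46 glutamatergic cells the correlation of the 2 genes was weak (Pearson's r = -0.33, Spearman's rho = -0.31, as a description). These points share a library and a depth each, and Slc17a7 itself went with the number of genes detected (r = 0.50).

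**Figure D4:**
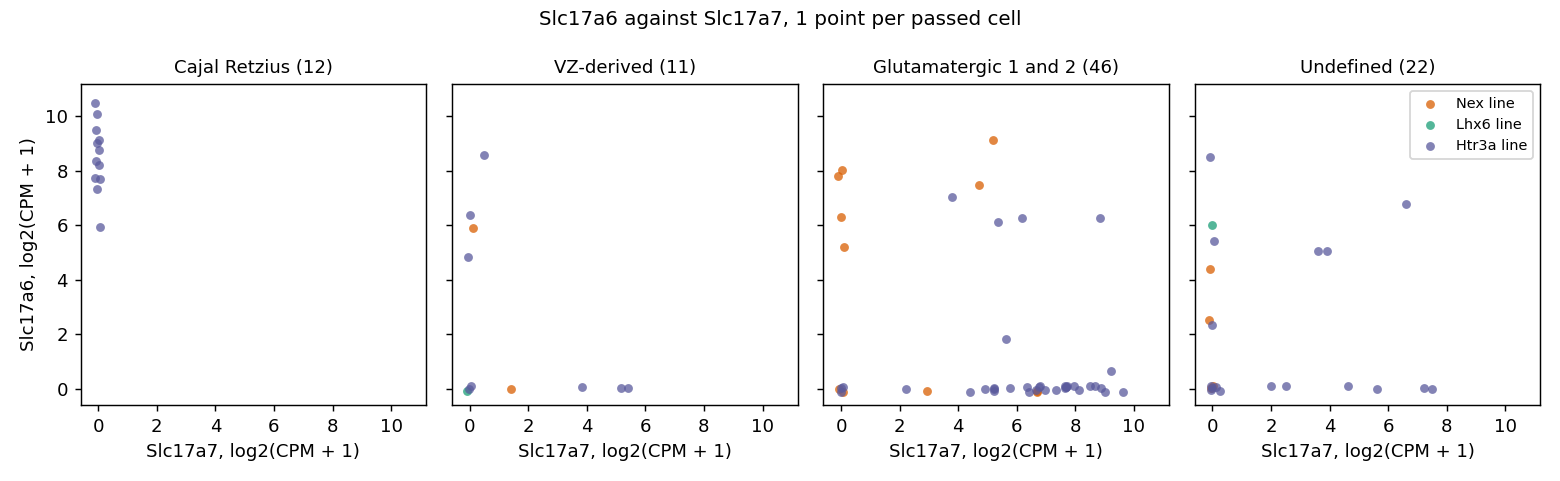
Slc17a6 (vertical) against Slc17a7 (horizontal) as log2(CPM + 1), 1 point per passed cell, by type label and coloured by line and shifted slightly at random so that cells at 0 can be seen. Cajal Retzius cells lie on the vertical axis, 30 of 46 Glutamatergic 1 and 2 cells hold Slc17a7 alone, and 8 of 46 hold both.

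Slc17a8 was rare. It had counts in 11 of 148 cells (7.43%, 3.77% to 12.9%), of which 9 held 10 or more counts. The highest was Glutamatergic 1 cell 23 of the Htr3a line at 392 CPM (4116 counts), which held 57.4% of all Slc17a8 counts. Next came MGE-derived 1 cell 6 of the Lhx6 line (93.1 CPM) and GABAergic cell 1 of the Lhx6 line (85.9 CPM), and then VZ-derived cell 4 (40.9 CPM), Glutamatergic 2 cell 6 (39.6 CPM), Glutamatergic 1 cell 7 (31.6 CPM) and Undefined cell 11 (16.04 CPM) of the Htr3a line. No label held it in more than 2 cells. Intervals for the small labels are wide, as for 1 of 4 GABAergic cells (25%, 0.631% to 80.6%), and whether it goes with a label was not tested.

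By their other transmitter genes the cells with Slc17a8 were of several kinds. The 3 Glutamatergic cells also held Slc17a7, at 36.9, 57.7 and 83.4 CPM, and at most 1 count of Gad1 or Gad2, the enzymes that make GABA. Of these, Glutamatergic 2 cell 6 held all 3 transporters, with 71.8 CPM of Slc17a6 against 36.9 CPM of Slc17a7. The 5 cells of GABAergic types all held Gad1 or Gad2 and held neither Slc17a6 nor Slc17a7, and 2 of these 5 had a single Slc17a8 count. VZ-derived cell 4 held 39.2 CPM of Slc17a7 and 14.5 CPM of Gad1, Undefined cell 11 held 229 CPM of Gad2, and Undefined cell 2 of the Nex line held 3.27 CPM of Slc17a8 with no count of Slc17a6, Slc17a7, Gad1 or Gad2. Over labels the order by mean log2(CPM + 1) ran from GABAergic (1.61 ± 3.22) through VZ-derived (0.49 ± 1.62), Glutamatergic 1 (0.41 ± 1.71), Glutamatergic 2 (0.41 ± 1.48), MGE-derived 1 (0.36 ± 1.55), Undefined (0.28 ± 0.96), MGE-derived 2 (0.10 ± 0.45) and CGE-derived (0.02 ± 0.05) to Cajal Retzius (0 in 12 cells), and no neighbours differed beyond their SD. Slc17a8 did not pass the filter of 10% of cells in any of the 6 comparisons. Both Glutamatergic 1 cells with Slc17a8 held fewer than 4000 genes, so none of the 22 Glutamatergic 1 cells with 4000 genes or more held it.

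Glutamate transporters and GABA synthesis genes seldom stood in the same cell at 10 or more counts, except under the Undefined label. At that threshold 39 of 46 Glutamatergic 1 and 2 cells held Slc17a6 or Slc17a7 without Gad1 or Gad2 and 2 held both kinds, while 4 of 57 cells of GABAergic types held both kinds and 52 Gad1 or Gad2 alone. In Undefined cells 10 of 22 held both kinds (45.5%, 24.4% to 67.8%), 5 a transporter alone, 3 a Gad gene alone and 4 neither. Of 19 such cells among all 148, 10 were thus Undefined. At 1 or more counts both kinds met in 34 of 148 cells, of which 12 were Undefined, 4 of 12 Cajal Retzius, 3 of 11 VZ-derived and 6 of 24 MGE-derived 2 cells among the others.

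In 3 of these 10 Undefined cells, Slc17a6, Slc17a7 and a Gad gene came together. Cell 13 of the Htr3a line held 105.7 CPM of Slc17a6, 89.9 CPM of Slc17a7, 20.4 CPM of Gad1 and 22.1 CPM of Gad2. Cells 5 and 8 of that line held 33.7 and 33.9 CPM of Slc17a6, 13.6 and 11.98 CPM of Slc17a7, and 146 and 75.2 CPM of Gad1. Undefined cells as a group carried markers of both classes, with median sums of 901 CPM for the cortical glutamatergic list and 172 CPM for the GABAergic list, and 7 of 22 held microglia markers. RNA of neighbouring cells could enter a pipette, and its part in these counts was not tested.

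Outside the Undefined label, CGE-derived cell 7 of the Htr3a line held 27.2 CPM of Slc17a6 beside 1348 CPM of Gad1 and 33.6 CPM of Slc32a1, the vesicular GABA transporter gene. Cell 7 was among the 2 CGE-derived cells with microglia markers, and the part of RNA from other cells in its counts was not tested. MGE-derived 2 cell 3 of the Htr3a line held 76.3 CPM of Slc17a6 beside 1049.8 CPM of Gad1. Both also held cortical glutamatergic markers, at 867 and 381 CPM in sum, where the median of the GABAergic types was 0.259 CPM. These markers were not particular to cells with Slc17a6. Of the 57 cells of GABAergic types, 11 held at least 3 of 8 at 10 or more counts, and the highest sum was 3501 CPM. MGE-derived 2 cell 2 of the Lhx6 line held 484 CPM of them with no count of Slc17a6 or Slc17a7. Of the glutamatergic cells, Glutamatergic 1 cell 6 of the Htr3a line held 481 CPM of Slc17a7 beside 366 CPM of Gad1 and 4.83 CPM of Slc32a1.

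**Figure D5:**
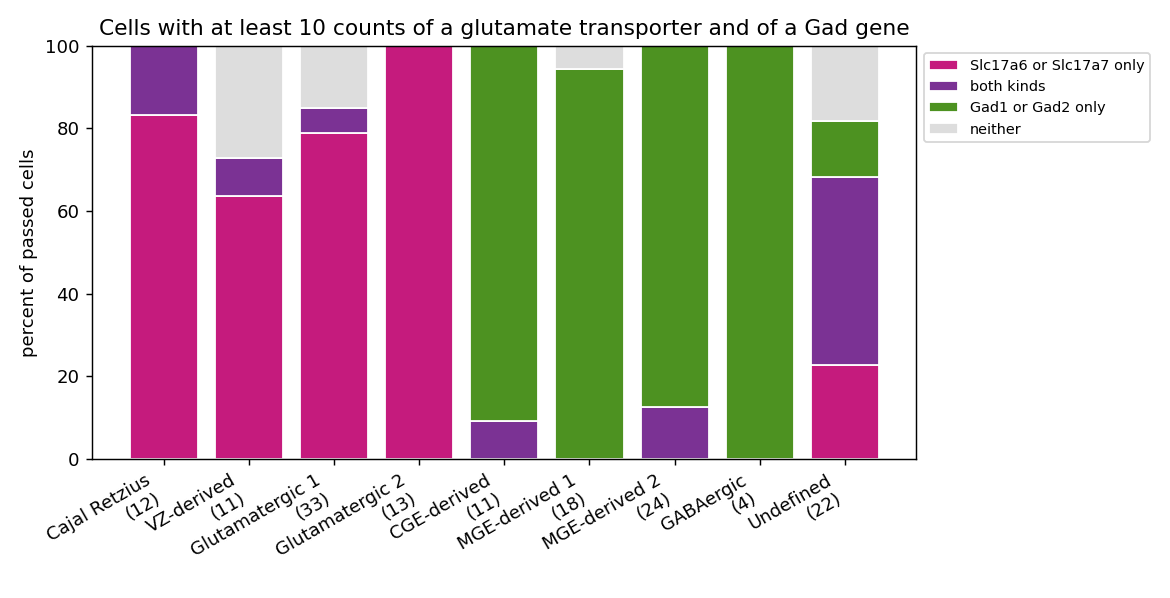
Percent of passed cells of each type label with at least 10 counts of Slc17a6 or Slc17a7 only, of both a transporter and Gad1 or Gad2, of Gad1 or Gad2 only, or of neither. Cells with both kinds make up 45.5% of the Undefined label and 16.7% or less of every other label.

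Under other labels, 4 cells held a larger sum of Cajal-Retzius markers than the lowest labelled Cajal Retzius cell, and their Slc17a6 varied. VZ-derived cell 1 of the Htr3a line (7743 CPM of these markers in sum) held 26.1 CPM of Slc17a6. Undefined cells 15 and 16 of the Htr3a line (4687 and 6927 CPM) held 338 and 3.86 CPM, and Undefined cell 4 (4830 CPM) held none of the 3 transporters. Labelled Cajal Retzius cells ran from 4306 to 19917 CPM of these markers, and all of them held Slc17a6.

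The other genes of vesicular loading and glutamate supply differed less than Slc17a7 between glutamatergic cells and GABAergic types. Of 16 genes of glutamate synthesis, transport and recycling, 15 could be measured, 2 were higher and 1 lower by at least 1, a share near the 15.8% of all genes past 1 in this comparison, and the median difference was 0.28 against 0.02 over all genes. Slc1a1, a neuronal glutamate uptake transporter, differed by 3.0 (129 against 52.2 CPM) and Slc1a2, the main uptake transporter of astrocytes, by 1.68 (71.5 against 21.7 CPM). Glud1, glutamate dehydrogenase, differed by -1.08 (96.0 against 195 CPM) and Oat, ornithine aminotransferase, by 0.93 (73.2 against 33.04 CPM).

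Among 6 other vesicular transporters, 5 could be measured, none was higher and 1 was lower. That was Slc32a1, at 0.181 against 10.3 CPM (1 of 46 against 33 of 57 cells, difference -1.73). Slc30a3, which loads zinc into glutamatergic vesicles, stood at 17.01 against 0.223 CPM with a difference of 0.67. Slc18b1, a polyamine transporter, differed by 0.20 and Slc18a1, a monoamine transporter, by -0.15. Of 6 further members of the SLC17 family, Slc17a5 (sialin, the lysosomal sialic acid exporter) could be measured and differed by -0.39 (13.2 against 26.4 CPM). Slc17a9 (the vesicular nucleotide transporter), Slc17a4 and Slc17a2 were in 4 or fewer of 46 glutamatergic and 5 or fewer of 57 GABAergic-type cells.

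Of 16 synaptic vesicle genes, 15 could be measured, 4 were higher and 1 lower, where 15.8% of all genes were past 1, with a median of -0.01. Sv2b, a vesicle glycoprotein gene, was nearest to Slc17a7 in the size of its difference: 173 against 1.91 CPM, in 32 of 46 against 5 of 57 cells, a difference of 4.49. Syp (synaptophysin) differed by 2.63 (361 against 124 CPM) and Syt4 (synaptotagmin 4) by 1.71 (751 against 197 CPM). Syn2 (synapsin 2) differed by -2.08 (85.6 against 218 CPM).

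Over the 148 passed cells, the genes whose log2(CPM + 1) went most closely with Slc17a6 among 12466 genes were Calb2 (r = 0.65), Trp73 (r = 0.62), Gm15557 (r = 0.61) and Gdf5 (r = 0.61). Calb2 (calretinin) and Trp73 (a p53 family transcription factor) are on the Cajal-Retzius marker list, and all 4 genes were in at least 11 of 12 Cajal Retzius cells. In Glutamatergic 1 and Glutamatergic 2 cells, where Slc17a6 stood at 46.5 and 19.5 CPM, Calb2 stood at 19.02 and 31.2 CPM, Trp73 at 0.0102 and 0 CPM, Gm15557 at 2.11 and 0 CPM and Gdf5 at 3.35 and 0 CPM. In sums over VZ-derived cells, Calb2 (76.4 CPM) and Trp73 (71.99 CPM) stood near Slc17a6 (70.4 CPM). Those sums rest on 4, 2 and 4 of 11 cells, and Slc17a6 stood at 20.8 CPM without its highest cell. The ranking depended on the cells and the measure: of these 4 genes, Gm15557 and Gdf5 were among the first 4 within the Htr3a line, and Calb2 and Trp73 by Spearman's rho. The genes nearest to Slc17a7 were St18 (r = 0.63), a zinc finger gene, Rprml (r = 0.58), Rtn4rl2 (r = 0.56), a Nogo receptor relative, and Arpp21 (r = 0.56), a cAMP-regulated phosphoprotein. St18 was in 10 of 13 Glutamatergic 2 cells, 13 of 33 Glutamatergic 1 cells and 7 of 57 cells of GABAergic types. Arpp21 was broader, in 30 of 33 Glutamatergic 1 cells and 9 of 11 VZ-derived cells, where Slc17a7 was in 25 and 5. Of the 4 genes, St18 and Arpp21 were among the first 4 within the Htr3a line, and St18 alone by Spearman's rho. These correlations share each cell's library and depth and describe these cells only.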

How the data were processed

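Cytosol of single cells was drawn through patch pipettes and sequenced as total RNA, per the labels' protocols. The authors deposited raw counts per Ensembl gene for 162 cells, with no normalization, and a normalized table (unit: signal) for 148 passed cells, both made with Trimmomatic, STAR and featureCounts on GRCm38, per the submitters' processing notes, which give no versions. In the authors' normalized signal, 111 of 111 member values above 0 equalled the counts divided by 1 factor per cell within 0.1%. A table of counts by symbol was not used here. Totals ran from 1710224 to 24836041 counts per passed cell, and 14 failed cells stayed out of every comparison.

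CPM were computed from the deposited counts, and differences of mean log2(CPM + 1), with a pseudocount of 1, over genes counted in 10% or more of the cells on either side. A difference of 1 or more counted as past the threshold. No p-value was computed. Lengths are exon unions of GENCODE M21. Scripts ran in Python 3.11.15 with numpy 2.4.6, pandas 2.3.3, scipy 1.17.1, matplotlib 3.10.9 and Biopython 1.88, and were tested on simulated data. No cell pair held identical values (0 pairs).

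The members and lists were chosen with earlier results of these data known. Named beside the members were the 4 genes of highest Pearson r with Slc17a6 and with Slc17a7 among genes with a count in at least 15 cells, and up to 4 genes of each list with the largest difference between Glutamatergic 1 and 2 cells and GABAergic types. Alternatives covered the pseudocount, the filter, the denominator, detection thresholds, thinning to the smallest total, the Htr3a line alone, and leaving out the highest cell, cells with microglia markers or cells of fewer than 4000 genes. The shares among cells of at least 4000 genes were added after the data were seen.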

Additional observations from a re-analysis of the deposited data

Results flagged for a closer look

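The 3 genes were examined in 6 groups of 4 to 10 cells (5 of 1 label and line, and the GABAergic label, which joins 1 Lhx6 line and 3 Htr3a line cells), 18 sets of values in all. Single cells stood apart from the rest of their group by Dixon's gap. Its chance rate of about 1 in 20 groups is for values with a normal spread and does not hold for groups that are at 0 but for 1 cell. For Slc17a7 this was cell 6 of the MGE-derived 2, Lhx6 line group, at 2.59 on the log2(CPM + 1) scale (5.04 CPM). For Slc17a8 these were cell 6 of the MGE-derived 1, Lhx6 line group at 6.56 (93.1 CPM), cell 1 of the GABAergic label, of the Lhx6 line, at 6.44 (85.9 CPM), cell 4 of the VZ-derived, Htr3a line group at 5.39 (40.9 CPM) and cell 2 of the Undefined, Nex line group at 2.09 (3.27 CPM). All other cells of these groups were at 0, so the gap spans the whole range by construction and each flag only marks the single cell with counts.

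Of the 14 cells that failed quality control and enter no comparison, 2 held a member well above a few counts. Slc17a6 had 3776 counts (901 CPM) in failed cell 1 of the VZ-derived, Nex line group, above the 385 CPM of the highest passed VZ-derived cell. Slc17a7 had 567 counts (153 CPM) in failed cell 1 of the Glutamatergic 1, Htr3a line group, within the range of the passed cells of that group. Slc17a8 had none in all 14.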

How the results depend on the processing

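Of 443 values recomputed under other settings, 398 moved by less than their spread, 45 moved more and 0 turned a called direction. With the Htr3a line alone, Glutamatergic 1 cells held Slc17a6 in 13.04% and Slc17a7 in 91.3%, and Slc17a8 was at 0 in share and level in MGE-derived 1 and GABAergic cells. Without the cell of highest CPM, Slc17a6 stood at 0 CPM in CGE-derived, 0.00951 CPM in MGE-derived 2 and 0.117 CPM in Htr3a line Glutamatergic 1 cells, and Slc17a8 at 0.342 CPM in Glutamatergic 1, 0.471 CPM in Htr3a line Glutamatergic 1 and 0 CPM in VZ-derived, Glutamatergic 2, MGE-derived 1 and GABAergic cells. At 10 counts or more, and at 10 CPM or more, the shares of MGE-derived 1 cells with Slc17a7, of CGE-derived cells with Slc17a8 and of VZ-derived cells with both Slc17a6 and Slc17a7 were 0%; the last was also 0% with counts thinned to the smallest total. At 10 CPM or more, 4.17% of MGE-derived 2 cells held Slc17a7 and 0% Slc17a8. Among cells of at least 4000 genes, a setting chosen after seeing the data, Slc17a7 was in 0% of MGE-derived 1 and 100% of Htr3a line Glutamatergic 1 cells, and Slc17a8 in 0% of Glutamatergic 1 cells and of their Htr3a line part. With pseudocounts of 0.1 and 10, the Slc17a7 difference of glutamatergic cells from GABAergic types was 7.62 and 2.79, and those of Cajal Retzius from glutamatergic cells were 9.43 and 4.41 for Slc17a6 and -8.00 and -2.84 for Slc17a7. Without the filter on low counts, the percent of genes past 1 was 9.08 for glutamatergic cells against GABAergic types, 27.4 for Glutamatergic 1 against 2, 23.3 for Cajal Retzius and 14.1 for VZ-derived against glutamatergic cells, 18.2 for Nex against Htr3a line and 15.7 for CGE- against MGE-derived cells, since genes near 0 everywhere enter. In CPM with no length, Slc17a6 minus Slc17a7 in Cajal Retzius cells was 8.51. Below the threshold of 1, the Slc17a6 difference of Glutamatergic 1 from 2 changed sign without the highest cell (-0.04). That of CGE- from MGE-derived cells did so without cells with microglia markers (-0.18), a setting that leaves out the 1 CGE-derived cell with a count. Within the Htr3a line the Slc17a6 difference of Glutamatergic 1 from 2 also changed sign and passed 1, with means of 0.41 and 1.54. The cause of the changes between Glutamatergic 1 and 2 was not tested. Of the 4 genes named as most like Slc17a6, 2 were kept by Spearman's rho and 2 within the Htr3a line, and of those for Slc17a7, 1 and 2. No paired analysis was possible because no number in the labels ties cells of different groups together. Depth limits absence: with 0 counts set at 3 counts over the group, the floor was 0.0192 CPM in Cajal Retzius and 0.0201 CPM in MGE-derived 1 cells. These floors hold for the reads of these cells and do not bound the level in others.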

Other observations

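Counts of listed genes past a difference of 1 are given here for other groups, each with the share of all genes past 1 in that comparison. In Cajal Retzius cells, 16 of 16 synaptic vesicle genes could be measured against Glutamatergic 1 and 2 cells, of which 7 were higher by at least 1 and none lower, near the 42.0% of all genes past 1, with a median difference of 0.90 against 0.51 over all genes. Syn2 (synapsin 2) stood at 552 against 85.6 CPM, a difference of 6.27, and Syp (synaptophysin) at 507 against 361 CPM, a difference of 1.81. Of 16 genes of glutamate handling, 5 were higher and 2 lower, with a median of 0.32. The lower ones included Slc1a1, at 23.8 against 129 CPM (difference -2.82).

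In Glutamatergic 1 cells of the Nex line against those of the Htr3a line, 15 synaptic vesicle genes could be measured, of which 2 were higher and 8 lower, where 33.3% of all genes were past 1, with a median of -2.13 against -0.10 over all genes. Syt4 (synaptotagmin 4) stood at 2556 against 194 CPM (difference 6.60), and Sv2b at 54.4 against 191 CPM (difference -3.26), in 2 of 10 against 18 of 23 cells. Slc1a1 stood at 231 against 93.1 CPM (difference 3.25). In Glutamatergic 1 against Glutamatergic 2 cells, 13 of 14 measured synaptic vesicle genes and 9 of 15 genes of glutamate handling were lower and none higher, where 49.9% of all genes were past 1, most of them lower, with medians of -1.97 and -1.47 against -0.97 over all genes.

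In VZ-derived against Glutamatergic 1 and 2 cells 2 of 15 synaptic vesicle genes were higher and 1 lower (median -0.19), and 1 of 15 genes of glutamate handling was higher and 4 lower (median -0.26). Of all genes, 26.3% were past 1 and the median was -0.09.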
